A study of Rattus norvegicus with 10 samples.

Results

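The carnitine shuttle and the first enzymes of mitochondrial fatty acid oxidation were followed in the hippocampus through 10 genes: Cpt1a, Cpt1b, Cpt1c, Cpt2, Crat, Acadm, Acadl, Acadvl, Hadha and Hadhb. The 10 genes were chosen by pathway, as carnitine acyltransferases and the first beta-oxidation enzymes, with the rise of Cpt1b in the same comparison already known. Their differences between groups, and whether each passed the test run over all genes, are therefore given as a description, without p-values. Nothing is read from how many of them changed or from how often their calls held over other settings. All 10 were found among the 17168 genes of the count table, and all 10 passed the low-count filter that left 12355 genes.

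Ibudilast, a drug that blocks phosphodiesterases of cyclic nucleotides, was given to 5 male TgF344-AD rats for 6 months, beginning when they were 5 months old. They were set against 5 male TgF344-AD rats on plain rodent chow. Left hippocampi of all 10 rats were taken at 11 months and each gave 1 library. Every rat of both groups carries the TgF344-AD transgenes, which include mutant human APP under a prion promoter, and no wild-type rats were analysed here. The tissue of the 5 ibudilast rats, and of no untreated rat, had been stored in a frozen-tissue transition solution, so drug and storage cannot be told apart in any comparison below.

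Long-chain fatty acids cannot cross the inner mitochondrial membrane as coenzyme A esters. A CPT1 enzyme on the outer membrane moves the acyl group to carnitine, a translocase carries the acylcarnitine inward, and CPT2 on the inner membrane returns the acyl group to coenzyme A. Acyl-CoA dehydrogenases and the mitochondrial trifunctional protein then begin to shorten the chain. Malonyl-CoA, the product of acetyl-CoA carboxylase, inhibits CPT1. In brain, fatty acid oxidation is carried mainly by astrocytes, while neurons oxidise little fat.

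Library totals ranged from 14806807 to 18533520 counts. Levels are given as CPM, the usual per-library scaling of a gene's count to a common total, with totals adjusted by TMM factors, and are compared between rats for a gene and not between genes, because no transcript lengths were used. Excitatory-neuron markers were abundant, with sums of 1368 to 5974 CPM in ibudilast rats and 5011 to 7766 CPM in untreated rats. Of the 10 libraries, 4 stood apart. Ibudilast replicate 1 and untreated replicate 2 had choroid plexus and ependymal sums of 7292 and 7915 CPM, ibudilast replicate 4 had the lowest excitatory-neuron sum, 1368 CPM, and untreated replicate 3 had the highest microglial sum, 1177 CPM. Calls that change without these 4 libraries are given both ways for the members, the named pathway genes and Chkb, the gene next to Cpt1b. For the other genes beside the members, and for those most like Cpt1b, calls were not compared between settings. Of 12355 genes tested, 47.1% passed an adjusted p of 0.05 by edgeR's quasi-likelihood test with Benjamini-Hochberg adjustment, 24.3% higher and 22.8% lower with ibudilast. Of the genes that passed, 51.6% were higher, and 59.8% when library size alone was used. In 33.4% of genes the CPM values of the 2 groups did not overlap.

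Against that background, 4 members passed as higher with ibudilast (Cpt1b, Cpt1c, Crat and Acadvl), 2 passed as lower (Hadha and Hadhb), and 4 did not pass (Cpt1a, Cpt2, Acadm and Acadl). The groups did not overlap for 5 members, Cpt1b, Crat, Acadvl, Hadha and Hadhb. The median log2 fold change of the members was -0.12, beside 0.02 over all genes tested, and the median size regardless of direction was 0.34, beside 0.36. In bulk tissue, fewer cells of a type and less RNA per cell cannot be told apart.

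The promoter window of Hadha is printed because it overlaps that of Hadhb, the other lower member, and the 2 genes are read away from each other. Windows of 300 bases, 250 before and 50 after each transcription start, were taken from a table of RefSeq promoters on GRCr8, in which 7 of the 10 members matched. The Hadha window is chr6:31907551-31907850 on the plus strand, the Hadhb window is chr6:31907451-31907750 on the minus strand, and 200 bases are common to both. In the sequence of the Hadha window, capitals mark the bases shared with the Hadhb window.

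Hadha: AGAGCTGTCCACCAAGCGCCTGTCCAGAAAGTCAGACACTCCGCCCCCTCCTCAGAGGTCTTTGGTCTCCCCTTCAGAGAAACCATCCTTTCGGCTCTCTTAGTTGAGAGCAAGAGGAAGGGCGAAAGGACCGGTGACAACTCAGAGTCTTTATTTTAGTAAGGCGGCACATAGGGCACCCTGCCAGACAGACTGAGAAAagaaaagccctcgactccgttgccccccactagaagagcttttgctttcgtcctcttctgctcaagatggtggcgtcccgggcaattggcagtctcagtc

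The Acadvl window, chr10:55236656-55236955 on the minus strand, is shown as the member window with the most copies of AGGTCA, the nuclear-receptor half-site that PPARs and ERR-alpha bind. Both copies are in capitals.

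Acadvl: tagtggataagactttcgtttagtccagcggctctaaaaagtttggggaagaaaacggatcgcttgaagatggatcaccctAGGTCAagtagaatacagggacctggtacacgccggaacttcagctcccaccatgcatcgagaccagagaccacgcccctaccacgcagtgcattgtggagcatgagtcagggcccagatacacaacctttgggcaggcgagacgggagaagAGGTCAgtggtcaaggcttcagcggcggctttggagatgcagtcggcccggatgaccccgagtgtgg

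The half-site, read as AGGTCA or TGACCT, was in 16.2% of 33469 RefSeq windows of the same length and in 2 of 7 member windows, with 2 copies in Acadvl and 1 in Hadhb. The direct repeat of AGGTCA with 1 base between the copies was in 18 of all windows (0.05%) and in 0 of the 7. A match describes letters only and does not show that a factor binds.

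Cpt1b, the muscle and heart form of CPT1, had the widest difference of the 10. It measured 6.85, 5.83, 4.25, 12.6 and 5.96 CPM in ibudilast replicates 1 to 5, against 1.26, 1.32, 2.12, 0.513 and 1.02 CPM in untreated replicates 1 to 5. Every ibudilast rat lay above every untreated rat, and ibudilast replicate 4 was the highest. These levels rest on few reads, 61 to 213 counts per library with ibudilast and 8 to 34 counts in untreated rats. The means were 7.10 ± 3.21 CPM with ibudilast and 1.25 ± 0.583 CPM without it (SD, n = 5 each), a ratio of 5.69 and a log2 fold change of 2.50 ± 0.38 (SE). The log2 fold change stayed between 2.17 and 2.75 over the 18 alternative settings, and was 2.50 without the 4 libraries that stood apart.

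Cpt1b lies next to Chkb, the choline kinase beta gene, in the rat annotation, and in human a joined transcript of both genes is known. Chkb itself was 51.2, 56.6, 53.6, 56.5 and 53.0 CPM with ibudilast, against 26.2, 25.6, 36.1, 29.0 and 30.4 CPM in untreated rats. Its log2 fold change was 0.88 ± 0.09 (edgeR adjusted p = 6.01e-05), and the groups did not overlap. Cpt1b counts amounted to 13.0 ± 5.52% of Chkb counts with ibudilast, range 7.94 to 22.3%, against 4.19 ± 1.63% in untreated rats, range 1.77 to 5.88% (SD, n = 5 each). The share thus did not overlap either. Whether reads of a joined transcript were counted for Cpt1b was not tested.

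Muscle markers were examined beside Cpt1b. Their summed level was 59.5 to 76.3 CPM with ibudilast and 27.4 to 41.9 CPM in untreated rats. Of 14 muscle markers 7 could be tested. Of these 7, 2 passed as higher, Myh6 and Tnni3, beside 24.3% of all genes tested, and the count is not read as a result. Myh6, a cardiac myosin heavy chain, averaged 24.8 CPM with ibudilast and 6.11 CPM without it. After removal of group means, Cpt1b followed the summed muscle markers across the 10 rats (Pearson r 0.907, Spearman rho 0.721, and r 0.793 without untreated replicates 3 and 4). Before that removal, ibudilast replicate 4 was the highest in both, at 12.6 CPM for Cpt1b and 76.3 CPM for the sum. After it, untreated replicates 3 and 4 lay farthest from the median of the sum. The r of 0.793 still includes ibudilast replicate 4. Tnnt2 had a median of 1.04 CPM with ibudilast but reached 30.4 CPM there, above the Myh6 maximum of 29.3 CPM. In untreated rats Tnnt2 was at most 5.00 CPM. How far the summed level and its likeness to Cpt1b rest on Tnnt2 was not tested. Other markers of the list were mixed. Skeletal actin, Acta1, was 9.56 to 21.4 CPM with ibudilast and 11.2 to 18.1 CPM in untreated rats, and the myosin genes Myh1, Myh2 and Myh7 reached 2.37, 6.38 and 10.46 CPM with ibudilast and 2.82, 3.30 and 8.59 CPM in untreated rats. Creatine kinase and myoglobin were near 0, with Ckm at most 0.354 CPM with ibudilast and 0.128 CPM in untreated rats, and Mb at most 0.345 CPM with ibudilast and 0.0624 CPM in untreated rats. The part of muscle RNA in the Cpt1b difference was not tested. The summed brown fat markers were 5.02 to 11.0 CPM with ibudilast and 9.37 to 15.6 CPM in untreated rats, with Ucp1 at 0 in 9 of 10 rats and Elovl3 at 0 in 8. Most of that gap was Dio2, at 4.32 to 5.84 CPM with ibudilast and 8.73 to 12.8 CPM in untreated rats. Dio2 was the only gene of this list that could be tested, and the gap is not read as a difference in brown fat.

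**Figure D1:**
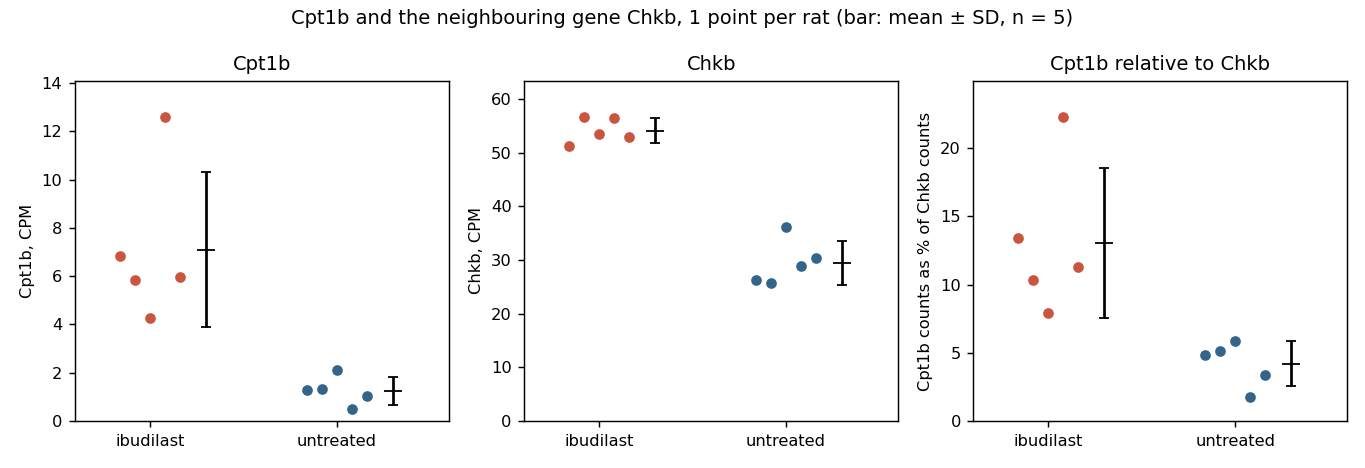
Levels of Cpt1b and Chkb in CPM, and Cpt1b counts as a percentage of Chkb counts, with 1 point per rat, ibudilast left of untreated, and bars for mean and SD (n = 5 each). In all 3 panels the ibudilast rats lie above the untreated rats.

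After the group means were removed, the genes whose log2 CPM followed Cpt1b most closely across the 10 rats were Fnbp4 (Pearson r 0.950), Rab43 (0.947), Atxn2l (0.941), RGD1305627 (0.936) and Inpp5e (0.930). Their own log2 fold changes with ibudilast were 1.23, -0.14, 0.84, 0.14 and 0.50, and those of Rab43 and RGD1305627 did not pass. These likenesses describe the same 10 libraries, whose depth and cell makeup all genes share, and carry no test.

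Cpt1a, the liver form of CPT1 and the main form in astrocytes, had 51.2, 43.3, 34.6, 50.6 and 43.2 CPM with ibudilast, against 50.7, 56.3, 82.6, 53.6 and 49.8 CPM in untreated rats. The groups overlapped, since ibudilast replicates 1 and 4 were above the lowest untreated rats, and untreated replicate 3 was far above the rest. The log2 fold change was -0.39 ± 0.16, with means of 44.6 ± 6.76 CPM with ibudilast and 58.6 ± 13.6 CPM without it. It did not pass in the main test, but did pass with DESeq2 (-0.41), without ibudilast replicate 4 (-0.47) and without the 4 libraries (-0.34).

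Cpt1c, the neuronal form, sits in the endoplasmic reticulum and has little transferase activity. It had 120, 122, 141, 90.2 and 137 CPM with ibudilast, against 103, 92.2, 79.0, 80.5 and 101 CPM in untreated rats. Ibudilast replicate 4 fell within the untreated range, and the other 4 ibudilast rats were above it. The log2 fold change was 0.42 ± 0.13, and 0.49 without the 4 libraries. Ibudilast replicate 4 also had the lowest excitatory-neuron sum, and after removal of group means Cpt1c followed that sum across the 10 rats (Pearson r 0.902, Spearman rho 0.903, and r 0.729 without ibudilast replicate 4 and untreated replicate 3). Between groups Cpt1c was higher with ibudilast while the summed excitatory markers had a median of 5124 CPM with ibudilast and 7206 CPM in untreated rats. Their part in the Cpt1c difference was not tested.

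**Figure D2:**
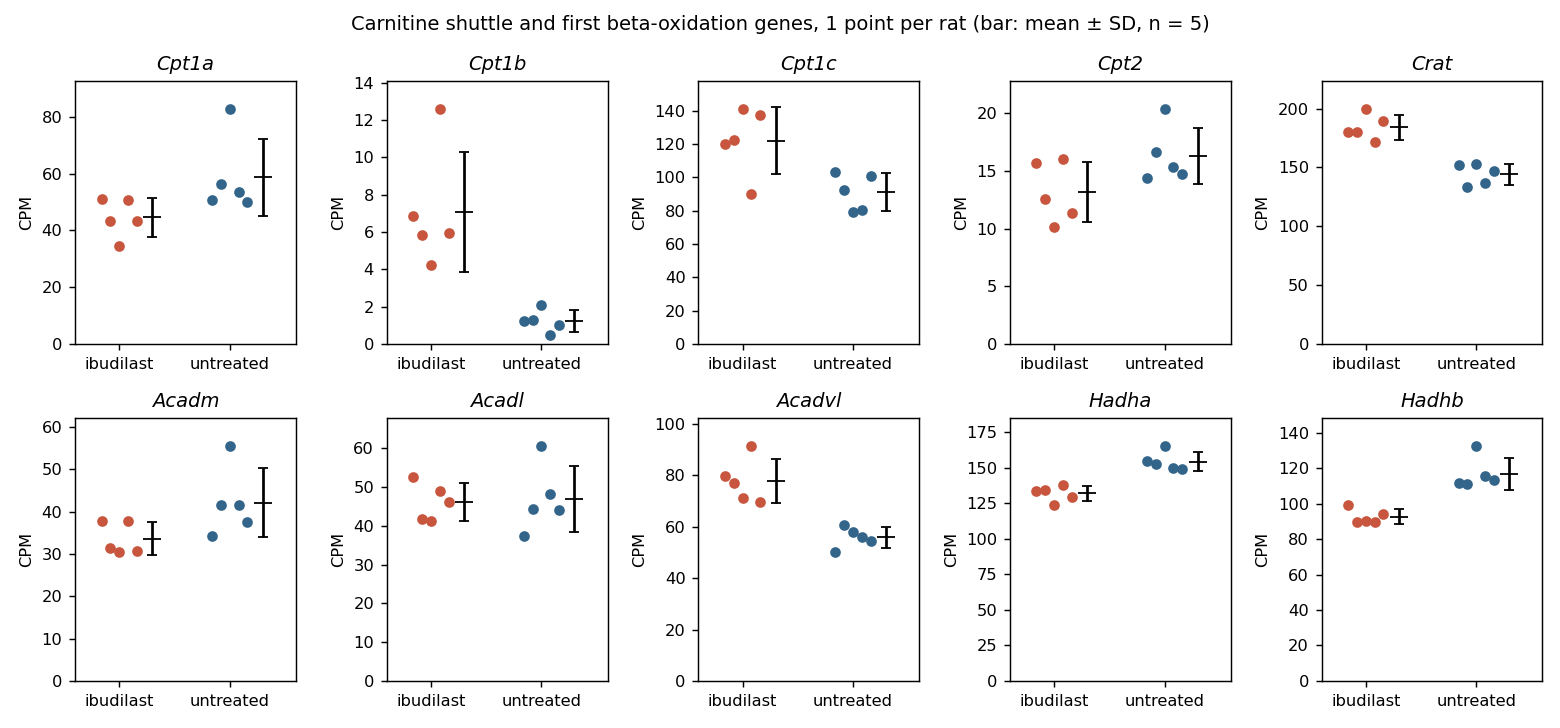
Level of each of the 10 members in CPM, with 1 point per rat, ibudilast left of untreated, and bars for mean and SD (n = 5 each). Cpt1b, Crat and Acadvl lie higher in every ibudilast rat, Hadha and Hadhb lie lower in every ibudilast rat, and the other 5 overlap.

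Cpt2, the inner-membrane transferase, had 15.7, 12.6, 10.2, 16.1 and 11.3 CPM with ibudilast, against 14.4, 16.6, 20.4, 15.4 and 14.7 CPM in untreated rats. The groups overlapped and the difference, -0.30 ± 0.15 on the log2 scale, did not pass, although it did without the 4 libraries (-0.38). Slc25a20, the translocase between CPT1 and CPT2, was also close between groups, at 35.1 ± 2.41 CPM with ibudilast and 36.7 ± 3.03 CPM without it (log2 fold change -0.07 ± 0.08, edgeR adjusted p = 0.501). Crat, which moves acetyl groups between carnitine and coenzyme A, had 180, 180, 199, 171 and 189 CPM with ibudilast, against 152, 133, 153, 137 and 147 CPM in untreated rats. Its lowest ibudilast rat was above its highest untreated rat, and its log2 fold change was 0.35 ± 0.07.

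The 3 acyl-CoA dehydrogenases, which take the first oxidation step on chains of different length, did not move alike. Acadvl, the very-long-chain enzyme of the inner membrane, had 79.8, 77.1, 71.3, 91.4 and 69.6 CPM with ibudilast, against 50.2, 60.9, 57.9, 55.8 and 54.4 CPM in untreated rats. The groups did not overlap, and the log2 fold change was 0.48 ± 0.09. Acadl, the long-chain enzyme, had 52.6, 41.8, 41.2, 49.0 and 46.1 CPM with ibudilast, against 37.4, 44.3, 60.6, 48.1 and 43.9 CPM in untreated rats. Those values interleave, with a log2 fold change of -0.02 ± 0.12. Acadm, the medium-chain enzyme, had 37.7, 31.3, 30.4, 37.9 and 30.8 CPM with ibudilast, against 34.3, 41.6, 55.5, 41.6 and 37.6 CPM in untreated rats. These groups overlapped and the log2 fold change of -0.32 ± 0.13 did not pass. It passed with DESeq2 (-0.34), without untreated replicate 1 (-0.39), without ibudilast replicate 4 (-0.39) and without the 4 libraries (-0.29).

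Hadha and Hadhb encode the alpha and beta subunits of the trifunctional protein, which carries out the later steps of the cycle on long chains. Hadha had 134, 135, 124, 138 and 130 CPM with ibudilast, against 154, 152, 165, 150.1 and 149 CPM in untreated rats. Hadhb had 99.2, 89.5, 90.03, 89.8 and 94.1 CPM with ibudilast, against 111, 111, 133, 116 and 114 CPM in untreated rats. In both genes every ibudilast rat was below every untreated rat. The log2 fold changes were -0.23 ± 0.06 for Hadha and -0.34 ± 0.07 for Hadhb, and Hadha no longer passed when library size alone was used (-0.15) or with the replicate block (-0.23). The ratio of Hadha to Hadhb counts was 1.43 ± 0.0856 with ibudilast, range 1.35 to 1.54, against 1.32 ± 0.0568 in untreated rats, range 1.25 to 1.39, so the ratios overlapped. Hadhb followed the summed astrocyte markers after removal of group means (Pearson r 0.917, Spearman rho 0.939, and r 0.896 without the 2 farthest rats). Of 9 astrocyte markers 5 passed as lower, beside 22.8% of all genes tested. Gfap, S100b, Ntsr2 and Aldh1l1 had higher medians with ibudilast. These were 2534, 2217, 213 and 36.6 CPM, against 2292, 2004, 165 and 31.9 CPM in untreated rats. The astrocyte sum had a median of 6780 CPM with ibudilast and 7862 CPM in untreated rats, with overlapping ranges. Hadhb also followed the summed microglial markers (Pearson r 0.880, Spearman rho 0.733, and r 0.601 without ibudilast replicate 5 and untreated replicate 3). The part of astrocyte or microglial RNA in the Hadhb difference was not tested.

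Over the 10 rats, with group means removed, Cpt1a, Cpt1b, Cpt2, Acadm, Acadl, Acadvl, Hadha and Hadhb tended to deviate together. All 28 pairs among these 8 genes, a grouping made after their values were seen, had a positive Pearson r, from 0.0827 to 0.946 with a median of 0.733. By rank, 2 of these pairs were slightly negative, Cpt1b with Hadhb (rho -0.10) and Acadvl with Hadhb (rho -0.03). Cpt1a and Cpt2 had r 0.917 (rho 0.830), and Acadm and Acadl had r 0.946 (rho 0.879). Hadha and Hadhb, whose promoter windows overlap, had r 0.541 (rho 0.0909), which was 0.0278 without the 2 farthest rats and so rests on them. Cpt1c ran against 8 of the other 9 members, with r from -0.849 with Acadvl to 0.581 with Crat. Within each group, its r was alike for Cpt1a (-0.725 with ibudilast and -0.709 in untreated rats). It was unlike for Cpt1b (-0.960 with ibudilast and 0.030 in untreated rats) and Hadhb (0.178 with ibudilast and -0.717 in untreated rats). All 45 pairs come from the same 10 libraries and share their depth and cell makeup. Of the 8 genes, 7 also followed the summed endothelial and mural markers, with Pearson r from 0.772 for Acadl to 0.893 for Cpt2 and Spearman rho from 0.612 for Hadha to 0.867 for Acadm, while Hadhb had r 0.509 (rho 0.285). Without ibudilast replicate 4 and untreated replicate 3, the r of those 7 ranged from 0.442 for Cpt1b to 0.832 for Cpt1a. Of 10 such markers 5 passed as lower, beside 22.8% of all genes tested. Pdgfrb had a higher median with ibudilast, 46.7 CPM against 40.9 CPM in untreated rats. The sum had a median of 253 CPM with ibudilast and 400 CPM in untreated rats. Its ranges overlapped, 196 to 408 CPM with ibudilast and 362 to 658 CPM in untreated rats.

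**Figure D3:**
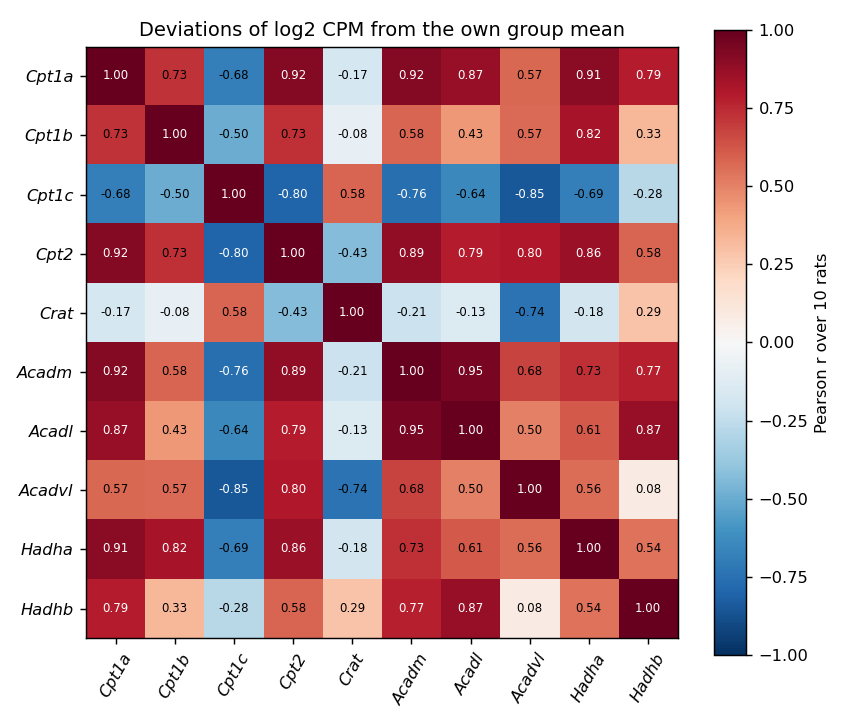
Pearson r between the members' log2 CPM across the 10 rats after removal of the group means, shown as a matrix of 45 pairs. Cpt1c is negative with all members but Crat, and the 8 genes other than Cpt1c and Crat are positive with each other.

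Other marker lists moved between groups as well. Over all genes tested, 24.3% passed as higher and 22.8% as lower. Oligodendrocyte markers summed to 16350 to 19473 CPM with ibudilast and 7988 to 15644 CPM in untreated rats, with 7 of 13 passing as higher. Microglial markers summed to 517 to 622 CPM with ibudilast and 629 to 1177 CPM in untreated rats, with 5 of 10 passing as lower. With group means removed, Pearson r of the members with the microglial sum ran from -0.425 for Cpt1c to 0.880 for Hadhb. It was 0.820 for Cpt1a, 0.817 for Acadl and 0.771 for Acadm. The part of these shifts in the member differences was not tested.

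Of 87 genes tested in 7 lists around the shuttle, 15 passed as higher and 15 as lower, beside 24.3% and 22.8% of all genes tested. In the list of carnitine supply and transport, 2 of 8 genes passed as higher and 1 as lower, with a median log2 fold change of -0.10. Crot, the peroxisomal carnitine octanoyltransferase, averaged 30.3 ± 3.67 CPM with ibudilast and 45.8 ± 5.29 CPM without it (-0.60 ± 0.10, edgeR adjusted p = 0.000973), with no overlap. Slc25a29, a mitochondrial carrier of basic amino acids first described as carnitine carrier-like, averaged 27.9 ± 1.62 CPM with ibudilast and 21.2 ± 1.55 CPM without it (0.39 ± 0.07, adjusted p = 0.00142). Slc22a5, the plasma-membrane carnitine transporter OCTN2, passed as higher (0.55 ± 0.19, adjusted p = 0.0338). That call was lost with the replicate block and without untreated replicate 1, 4 or 5 or ibudilast replicate 1, 4 or 5, with log2 fold changes down to 0.44 and adjusted p up to 0.105. Aldh9a1, an enzyme of carnitine synthesis, did not pass (-0.21, adjusted p = 0.0881) but did without ibudilast replicate 4 (-0.28) and without the 4 libraries (-0.27).

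In the list of other mitochondrial beta-oxidation genes, 2 of 15 passed as higher and 1 as lower, with a median of 0.03. Acads, the short-chain acyl-CoA dehydrogenase, averaged 35.9 ± 3.10 CPM with ibudilast and 23.3 ± 2.06 CPM without it (0.62 ± 0.09, edgeR adjusted p = 0.000249). Etfdh, which passes electrons from these dehydrogenases to ubiquinone, fell (-0.42 ± 0.10, adjusted p = 0.00443). Acad10 passed as higher (0.39, adjusted p = 0.0422), a call lost in 10 of 18 alternatives, among them leaving out untreated replicate 1, 2, 4 or 5 or ibudilast replicate 1, 4 or 5, with log2 fold changes down to 0.33 and adjusted p up to 0.122. Hsd17b10, which oxidises branched and short chains, did not pass (0.24, adjusted p = 0.0569) but did with library size alone (0.31), with limma-voom (0.25), without untreated replicate 3 (0.30) and without the 4 libraries (0.32).

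Fatty acid uptake and activation had 1 gene higher and 3 lower of 16, with a median of -0.01, and the 3 were acyl-CoA synthetases. Other synthetases of the list, Acsl1 (0.12), Acsl5 (0.02) and Acsbg1 (-0.28), did not pass. Acsl4, which favours arachidonic acid, averaged 68.3 ± 15.6 CPM with ibudilast and 155 ± 39.3 CPM without it (-1.19 ± 0.21, edgeR adjusted p = 0.00119). Acsl3 averaged 200 ± 8.29 CPM with ibudilast and 303 ± 24.8 CPM without it (-0.60 ± 0.07, adjusted p = 0.000132), and Acsl6 averaged 140 CPM with ibudilast and 197 CPM without it (-0.50, adjusted p = 0.00045). The 1 higher gene was Slc27a4, a fatty acid transport protein (0.44, adjusted p = 0.00227). In the peroxisomal list, 2 of 15 were higher and 2 lower, with a median of 0.05. Hsd17b4, the bifunctional enzyme of peroxisomal oxidation, averaged 58.9 CPM with ibudilast and 80.4 CPM without it (-0.45, adjusted p = 0.00102). The peroxisomal thiolase Acaa1a rose (0.33, adjusted p = 0.00740), and Decr2, a dienoyl-CoA reductase, passed as higher (0.38, adjusted p = 0.0302). The Decr2 call was lost in 10 alternatives, among them leaving out untreated replicate 3, 4 or 5 or ibudilast replicate 1, 2, 4 or 5, and leaving out the 4 libraries (0.38), with log2 fold changes down to 0.31 and adjusted p up to 0.0881. Among ketone body genes 1 of 8 was higher and 3 lower, with a median of -0.03. Oxct1, which starts ketone use, averaged 215 ± 14.01 CPM with ibudilast and 277 ± 38.1 CPM without it (-0.36, adjusted p = 0.0123).

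**Figure D4:**
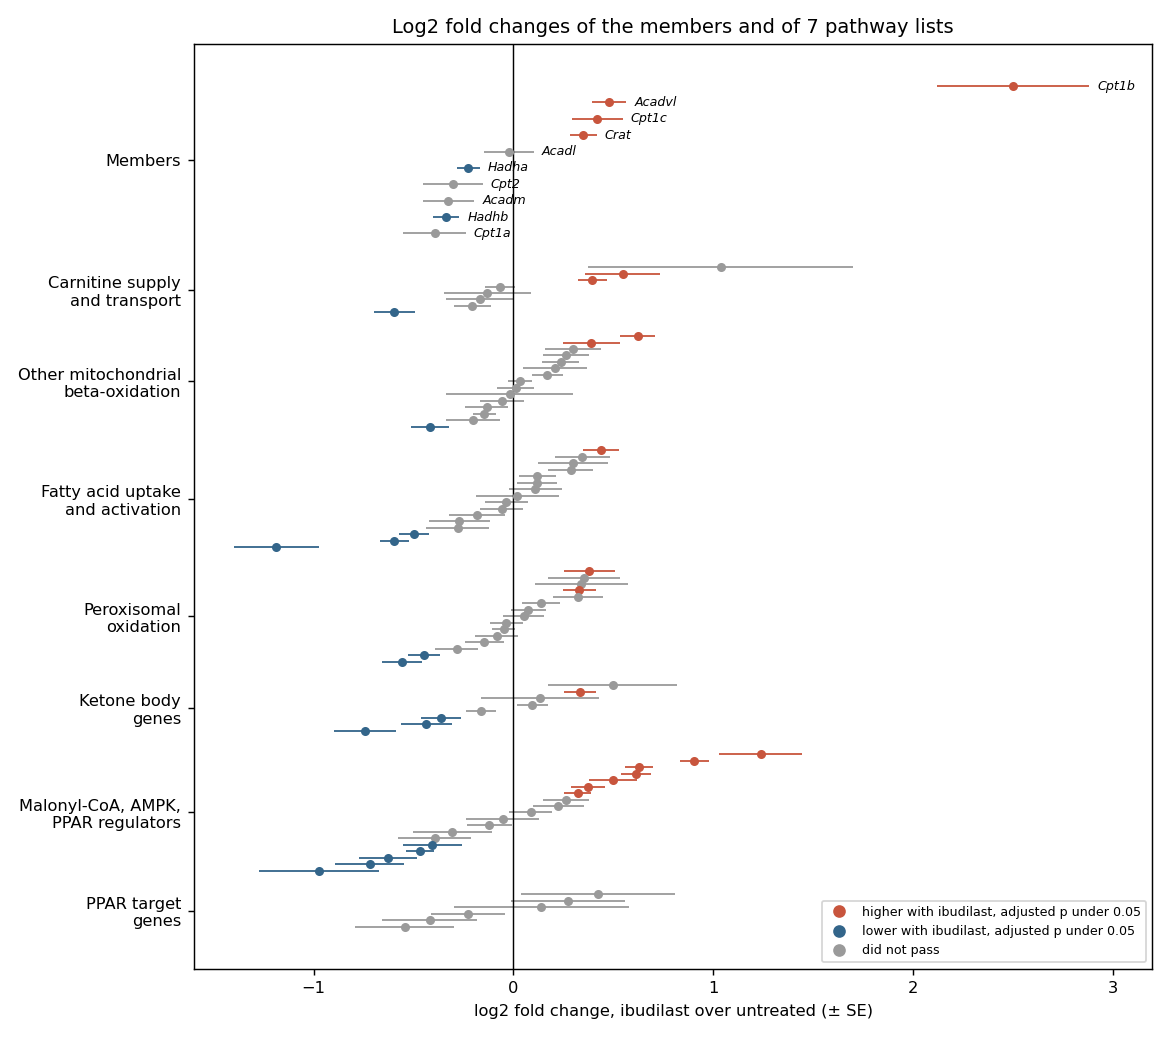
Log2 fold change of ibudilast over untreated with its SE for the 10 members and the tested genes of 7 pathway lists, colored by whether edgeR's adjusted p was under 0.05. Cpt1b, at 2.50, is the farthest to the right, and Acsl4, at -1.19, the farthest to the left.

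The regulators of malonyl-CoA, AMPK and PPAR signalling had 7 genes higher and 5 lower of 19, with a median of 0.09. Prkag1, an AMPK gamma subunit, averaged 91.3 ± 6.28 CPM with ibudilast and 48.7 ± 3.41 CPM without it (0.91 ± 0.07, edgeR adjusted p = 1.81e-05). Rxrb, a partner of PPARs, and Esrra, the ERR-alpha receptor, rose by 0.63 and 0.62 on the log2 scale (adjusted p = 7.59e-05 and 0.000128). Acaca, the cytosolic acetyl-CoA carboxylase, averaged 71.2 ± 5.73 CPM with ibudilast and 98.4 ± 4.26 CPM without it (-0.47, adjusted p = 0.000361). Acacb, the mitochondrial carboxylase whose malonyl-CoA acts on CPT1, and Mlycd, which degrades malonyl-CoA, were singled out after their values were seen. Acacb averaged 19.8 ± 4.33 CPM with ibudilast and 8.41 ± 2.38 CPM without it (1.24 ± 0.21, adjusted p = 0.000821), without overlap. Mlycd rose by 0.32 on the log2 scale (adjusted p = 0.00278). Neither call was lost in any of the 18 alternatives, which draw on the same 10 libraries and so add no separate support. Prkaa2, a catalytic AMPK subunit, was also picked out after its values were seen and passed as lower (-0.97, adjusted p = 0.0213). Its call was lost without ibudilast replicate 3 (-0.90) or 5 (-0.91), with adjusted p up to 0.0512. In the same list Prkab1 (0.50) and Sirt3 (0.37) passed as higher, and Prkaa1 (-0.41) and Prkab2 (-0.72) as lower. Calls of these genes were not compared between settings.

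Ppargc1a, the coactivator of oxidative genes, averaged 10.4 ± 2.30 CPM with ibudilast and 16.03 ± 1.14 CPM without it (-0.63 ± 0.14, edgeR adjusted p = 0.00467), without overlap. Ppara, the receptor that switches on CPT1 genes in liver, had 3.10 ± 0.541 CPM with ibudilast and 3.83 ± 0.860 CPM without it (-0.31 ± 0.20, adjusted p = 0.230), and passed only without the 4 libraries (-0.56, adjusted p = 0.0354). Of 6 PPAR target genes tested, 0 passed in either direction by edgeR's quasi-likelihood test, DESeq2 or limma-voom, and 0 had an unadjusted p under 0.05, with a median of -0.04. The log2 fold changes were -0.54 for the mitochondrial carrier Ucp2, -0.42 for the thioesterase Acot1, -0.23 for Plin2 and 0.43 for Plin5, which coat lipid droplets. Ucp2 passed as lower without untreated replicate 3 (-0.72), and Plin2 without ibudilast replicate 4 (-0.47). Both passed without the 4 libraries (-0.57 for Ucp2 and -0.45 for Plin2).

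**Figure D5:**
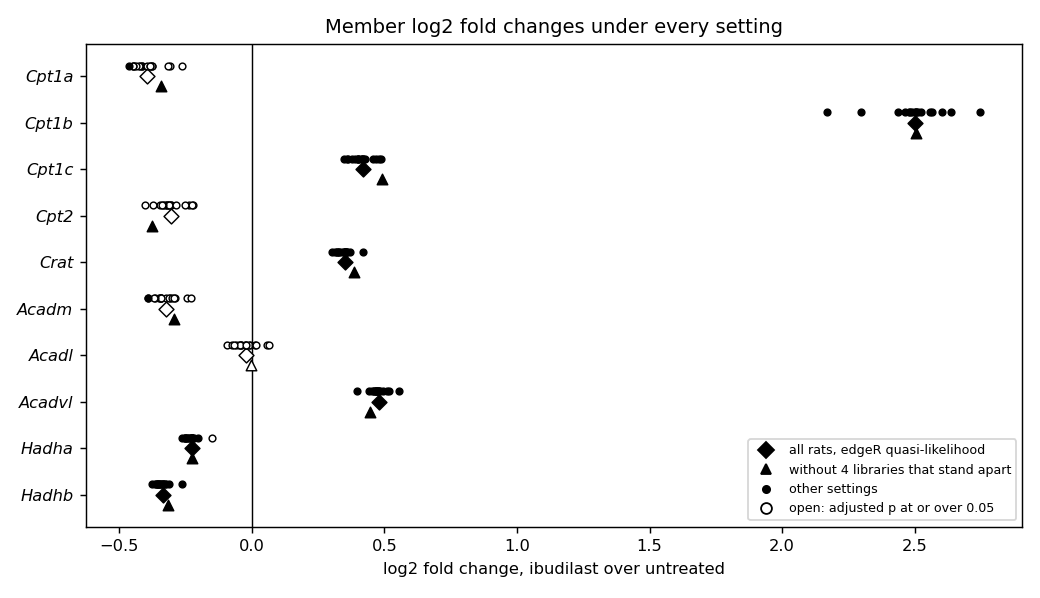
Log2 fold change of each of the 10 members under the main test and 18 alternatives, with filled points where the call passed and open points where it did not. The 4 higher members pass in every setting, and Cpt1a, Cpt2, Acadm and Hadha change their call in at least 1 setting. All settings draw on the same 10 libraries, so this is a description and not further support.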

How the data were processed

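Left hippocampal RNA of 10 male rats was isolated with a column kit and made into stranded mRNA libraries, per the labels' protocols. The authors deposited expected counts per gene, not normalized, of which 12.0% were not whole, and these were rounded to whole numbers. Per the submitters' processing notes, the tools were RSEM 1.2.15, Bowtie2 2.1.0, edgeR and bcl2fastq, and the build was rn6, with no roles stated, and the annotation and strand setting of the counting are not given in the sources used here. A second deposited table of TMM-normalized values was not used here.

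Groups and replicate numbers came from the sample titles, and the replicates are separate rats. Genes kept by filterByExpr were tested with edgeR's quasi-likelihood test (R 4.3.3, with limma 3.58.1 and edgeR 4.0.16), using TMM factors, robust fitting and Benjamini-Hochberg adjustment over all 12355 genes at 0.05. Log2 CPM used a prior count of 2. The test script was tested on simulated data. No 2 libraries of a group agreed within sampling noise (lowest chi-square per gene 11.63). The shared replicate numbers did not pair the rats (correlations of deviations from the group means -0.33 to 0.42).

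Members and lists were chosen with earlier results of these data known. Named genes were the 10 members, Slc25a20, Slc22a5, Crot, Ppara, Ppargc1a, Chkb, up to 4 genes of each list by smallest p, the protein-coding genes next to each member in the GRCr8 RefSeq annotation, and the 5 genes of mean CPM of at least 1 most like Cpt1b. Exceptions are named in the text, and a few genes under the rule are not reported here. Alternatives were RLE factors, library size alone, DESeq2 1.42.0, limma-voom, no filter, a filter of 10 counts in 5 libraries, a replicate block, leaving out each rat, and leaving out 4 libraries together.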

Additional observations from a re-analysis of the deposited data

Results flagged for a closer look

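In untreated replicate 3, Cpt1a at 82.6 CPM and Hadhb at 133 CPM stood far from the other 4 untreated rats. The gap to the nearest rat was 0.802 of the group's whole range for Cpt1a and 0.790 for Hadhb, above the limit of 0.71 for 5 samples. In all, 32 groups of values were looked at in this way, and chance flags about 1 in 20. The same rat had the highest astrocyte, microglial and endothelial marker sums of all 10 rats, 9702, 1177 and 658 CPM, and their part in these values was not tested.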

How the results depend on the processing

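Over 18 alternatives, all drawn from the same 10 libraries, the 4 higher members stayed at 4, which is a description only. The count of lower members, 2 in the main test, was 1 with library size alone, 1 with the replicate block, 4 with DESeq2 and 5 without the 4 libraries that stood apart, and 2 to 4 when each rat was left out in turn. Pathway genes higher, 15 in the main test, were 23 without the 4 libraries and 12 to 20 when each rat was left out, and pathway genes lower, 15, were 22 and 13 to 19. The cause was not tested. Genes changed, 5817 in the main test, numbered 4726 with the replicate block and 6857 without the 4 libraries, and 5115 to 6292 when each rat was left out. For the replicate block, 1 of 5 ibudilast rats was closest to the untreated rat of its own number. Among 45 gene results and 810 comparisons, 758 kept their call, 33 lost one, 19 gained one and 0 changed direction with a call, while in 5 of the 758 the sign turned without a call (Acadl with library size alone and without untreated replicate 3 or ibudilast replicate 2 or 3, and Slc25a20 with library size alone). Decr2, Acad10 and Slc22a5 lost theirs most often, and Prkaa2 lost its call without ibudilast replicate 3 (-0.90) or 5 (-0.91). Levels per length were not computed, since no transcript lengths were given. Cpt1b rests on 8 to 34 counts in untreated rats, and its log2 fold change was 2.17 without ibudilast replicate 4.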

Other observations

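The genes beside the members in the rat annotation were looked at for shared change. Of 20 distinct protein-coding neighbours 13 could be tested. Dvl2, a Wnt signalling adaptor beside Acadvl, averaged 24.8 CPM with ibudilast and 14.9 CPM without it (log2 fold change 0.73 ± 0.10, edgeR adjusted p = 0.000210). Dlg4, which encodes the postsynaptic scaffold PSD-95 on the other side of Acadvl, averaged 795 CPM with ibudilast and 1125 CPM without it (-0.50 ± 0.17, adjusted p = 0.0283). The neighbours of Acadvl thus moved in opposite directions, without overlap of the groups in either gene. Czib beside Cpt2, listed as RGD1559786 in the count table (0.31, adjusted p = 0.0214) and Dolpp1 beside Crat (0.27, adjusted p = 0.0433) passed as higher. Mrpl21, Prmt1, Ptpa (listed as Ppp2r4), Rabggtb, Slc44a5 and Garem2 (listed as Gareml) did not pass, with log2 fold changes from -0.22 to 0.18. Apart from Chkb, Hadha and Hadhb, calls of these neighbours were not compared over the alternative settings.

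Ketone body and lactate transporters of the list were lower. Slc16a7, the neuronal monocarboxylate transporter MCT2, averaged 5.13 CPM with ibudilast and 8.59 CPM without it (-0.74 ± 0.16, edgeR adjusted p = 0.00279). Slc16a1, the endothelial and glial MCT1, averaged 31.4 CPM with ibudilast and 42.5 CPM without it (-0.44, adjusted p = 0.0167), a call lost with library size alone (-0.35) and without untreated replicate 4 (-0.39), with adjusted p up to 0.0832.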
